A study of Mus musculus with 18 samples.

Results

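Liver messenger RNA was compared between mice called prone to a high-fat diet (HP) and mice on a normal diet (ND), with 3 libraries in each group. These 6 libraries are part of 18 that also cover resistant mice on the high-fat diet (HR) and epididymal fat. A gene was described where 3 or more of the 9 liver libraries read 1 FPKM or higher, which held for 10633 of 23474 gene identifiers. FPKM counts fragments, scaled to the length of the transcript and to the mapped fragments of the library. All mice were male C57BL/6J (the strain field spells it C56BL/6J), individually housed, 5 weeks old when the diets began and 17 weeks old after 12 weeks of feeding. The labels name no allele and no drug. They describe a random division into ND, HP and HR, and give no rule by which a mouse was called prone or resistant. Whether a library is 1 mouse is not stated either, so a p-value measures the spread between these libraries, which may be technical in part. Values of single libraries are given in the order 1, 2 and 3 of the group. At the edge of the filter, Wdr47 was just inside, with a third-highest liver value of 1.00 FPKM, and Plcxd2 was just outside, at 0.9996 FPKM.

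The liver takes up fat and sugar from the portal blood, makes fatty acids and cholesterol, exports lipid as lipoproteins and stores the excess as droplets. Sterol regulatory element binding proteins drive the genes of fatty acid and cholesterol synthesis, and PPAR alpha, a receptor for fatty acids, drives the genes of their oxidation. In male mice the pulsed release of growth hormone keeps a set of liver genes high, among them those of the major urinary proteins and several P450 enzymes, and keeps a set of female-biased genes low. A diet rich in fat is known to fill hepatocytes with triglyceride and, over time, to draw in macrophages and lay down collagen.

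The liver label held in every library by its hepatocyte markers, which summed to 44978 to 49393 FPKM in ND and to 25910 to 57529 FPKM in HP. The lowest sum was that of HP 3, which listed 0 for Alb, the gene of serum albumin, and for mt-Co1, a mitochondrial subunit of cytochrome oxidase. Alb read 23684, 21466 and 26495 FPKM in ND and 22791, 27895 and 0 in HP, and mt-Co1 read 33574, 43188 and 35030.1 FPKM in ND and 45802, 53659 and 0 in HP. A listed 0 can be a failed estimate, since every other liver library read at least 21466 FPKM for Alb and 29610 for mt-Co1, and neither value is read as a fall. Neither gene passed the test, with the 0 kept (limma adjusted p = 0.23 for Alb and 0.262 for mt-Co1) or set to missing. The log2 difference of Alb went from -4.79 to 0.08 when it was set to missing (limma adjusted p = 0.769), and that of mt-Co1 from -4.78 to 0.42 (limma adjusted p = 0.142). HP 2 and HP 3 also held skeletal muscle transcripts, which summed to 119 and 24.3 FPKM there, to 0.190 in HP 1 and to no more than 0.973 in an ND library. All values of a library summed to 703182 to 791867 FPKM in ND and 814680 to 930139 FPKM in HP. The absolute depth is unknown, and the steps of low values put the depth of the other liver libraries at 0.88 to 1.11 of that of ND 2.

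Of the 10633 genes, 1870 were higher in HP and 1502 lower at a limma adjusted p of at most 0.05, which is 17.6% and 14.1%, or 31.7% together. A log2 difference of at least 1 was reached by 405 of the higher and 168 of the lower genes, and one of at least 3 by 14 and 5. All log2 differences are on the scale of log2(FPKM + 1), which understates the change of low genes. The 3 HP libraries lay above the 3 ND libraries for 23.6% of genes and below them for 21.3%. Without HP 2, ND 1 or ND 3 the number called fell to 1740, 1874 and 1945, and without ND 2 it was 3554. Rescaling by the median ratio between libraries gave 1870 higher and 1579 lower genes (17.6% and 14.8%). Rescaling to the same sum lowered the median gene by 0.23 on the log2 scale and turned the split to 1039 higher and 3029 lower, so 25.5% of the called genes were higher in place of 55.5%. Quantile normalization gave 1721 higher and 1809 lower. With the 0 of Alb and mt-Co1 in HP 3 set to missing, 3378 genes were called.

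**Figure D1:**
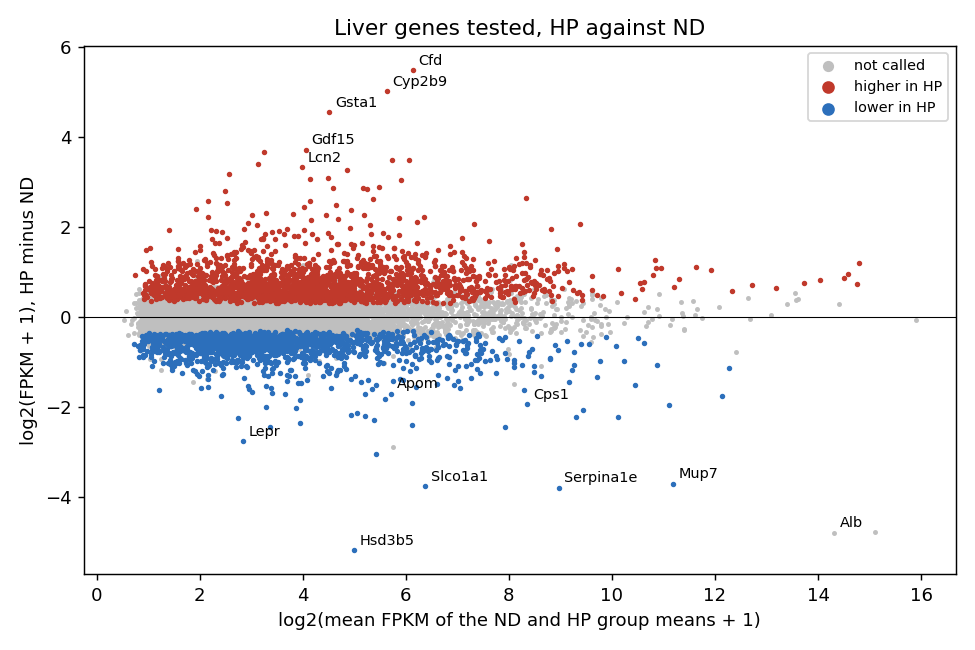
Each point is a liver gene, with the log2 of the mean of both group means (FPKM + 1) on the horizontal axis and the log2 difference between HP and ND on the vertical axis. Red and blue points passed the test (1870 higher, 1502 lower). Cfd at 5.48 and Hsd3b5 at -5.17 are the extremes among them, and Alb, listed at 0 in HP 3, is not called.

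The difference between HP and ND moved with the length of the transcript. The genes were split by length into 5 classes of like size. In the class with the shortest transcripts (151 to 1876 bases for the longest transcript of a gene), the median log2 difference was 0.386, with 43.8% of genes higher and 3.98% lower. In the class with the longest (5091 to 123179 bases), it was -0.289, with 4.36% higher and 28.5% lower. Spearman's rho across 10553 genes was -0.492 with length and 0.25 with GC content, as a description, since genes are not independent replicates. The same trend against the ND mean was present in each library, at -0.497, -0.513 and -0.368 in HP 1 to 3 and at -0.351, -0.113 and -0.320 in HR 1 to 3. After each library was corrected for smooth trends in length and GC content, 1374 genes were higher and 1007 lower (12.9% and 9.47%), and 1881 of these had the same call without the correction. Counts after this correction are given beside the counts of the gene lists.

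**Figure D2:**
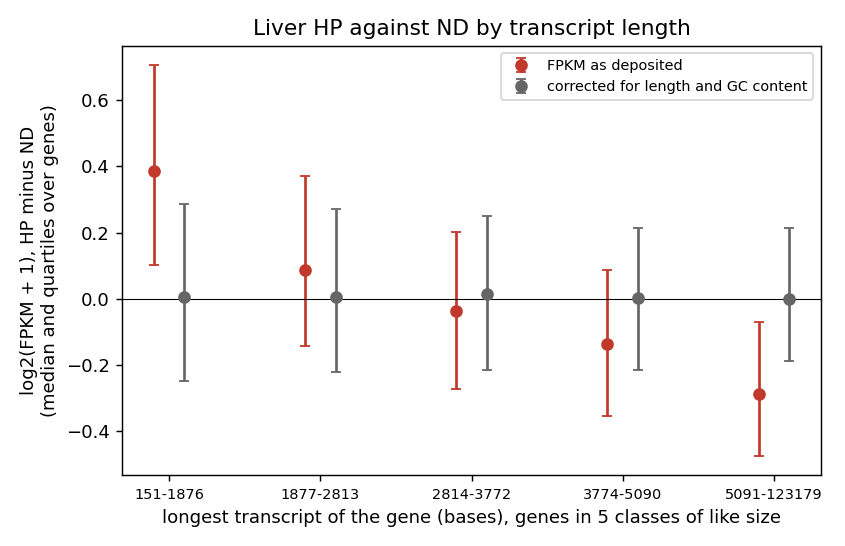
Median log2 difference between HP and ND (points) with its quartiles over genes (bars) in 5 classes of the longest transcript length. The values as deposited run from 0.386 for the shortest class to -0.289 for the longest, and the corrected values lie near 0 in all 5.

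The largest rise was that of Cfd, which encodes adipsin, the complement factor D that fat cells secrete. It read 1.78, 3.11 and 0.7201 FPKM in the ND libraries and 193, 162 and 54.7 in the HP libraries (log2 difference 5.48, SE 0.42, limma adjusted p = 5.96e-05). The mean was 72.9 times that of ND, and every HP library lay far above every ND library. Cfd was also high in HR, at 134, 96.3 and 126 FPKM, and HP and HR differed by 0.03 (95% interval -0.90 to 0.96, adjusted p = 0.975). Adipoq, which marks fat cells, was listed at 0 in all ND and HR libraries and read 1.40, 0 and 0.174 FPKM in HP. Plin1 and Lep, also fat cell markers, read 0.399 and 0.723 FPKM in HP 1 and 0 in HP 2 and HP 3. The fat cell markers as a list summed to 740 to 1666 FPKM in ND, 2449 to 3124 in HP and 2243 to 2563 in HR, nearly all of it Car3. Of 4 tested markers 3 were higher in HP than in ND. The part of fat cells in the rise of Cfd was not tested, and in bulk RNA more cells of a type and more RNA per cell cannot be told apart.

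Other large rises were those of a stress hormone, of detoxifying enzymes and of female-biased P450 enzymes. Gdf15, a hormone that cells under stress release and that lowers appetite, read 1.09, 1.05 and 1.92 FPKM in the ND libraries and 37.9, 25.97 and 25.8 in the HP libraries (log2 difference 3.71, SE 0.18, limma adjusted p = 3.48e-06). Its HP values lay close together and well above ND, with HR between them at 6.83, 7.02 and 7.42 FPKM and a difference between HP and HR of 1.91 (adjusted p = 0.00062). Cyp2b9, a P450 enzyme of female liver, read 0.999, 4.42 and 0.966 FPKM in the ND libraries and 50.5, 103 and 132 in the HP libraries (log2 difference 5.01, SE 0.41, limma adjusted p = 6.5e-05). Gsta1, a glutathione S-transferase, read 0.593, 0.413 and 0.5803 FPKM in the ND libraries and 11.8, 51.5 and 66.5 in the HP libraries (log2 difference 4.55, SE 0.50, limma adjusted p = 0.000281). In both genes HP 1 was the lowest of the HP libraries and still far above ND. Scand1, which encodes a small protein with a SCAN domain, read 0.7296, 0.2104 and 0.203 FPKM in the ND libraries and 12.2, 23.5 and 14.4 in the HP libraries (log2 difference 3.65). HR was also low, at 0.642, 0.429 and 0.543 FPKM, and HP exceeded HR by 3.48. Scand1 reached 1 FPKM in the HP libraries alone, so it had to differ to be tested, and its values are a description. Other genes among the 15 largest rises were Lgals1 (3.48), Cyp2a4 (3.40), Lcn2 (3.33), Cyp2a22 (3.26), Cidea (3.17), Ifi27l2b (3.09), Gstm3 (3.05), Thrsp (3.03) and Saa2 (2.89), as log2 differences.

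Male-biased liver genes made up 8 of the 15 largest falls, the first 5 among them. Hsd3b5, a steroid dehydrogenase of male liver, read 54.5, 49.1 and 79.96 FPKM in the ND libraries and 2.58, 0.185 and 0.124 in the HP libraries (log2 difference -5.17, SE 0.38, limma adjusted p = 5.66e-05). The groups did not overlap. In HR the gene read 82.04, 54.6 and 56.1 FPKM, and HP minus HR was -5.25 (95% interval -6.09 to -4.41, adjusted p = 0.000146). Serpina1e, a form of alpha-1-antitrypsin, read 1126, 507 and 1148 FPKM in the ND libraries and 109.9, 80.5 and 26.5 in the HP libraries (log2 difference -3.79, SE 0.46, limma adjusted p = 0.000494). Slco1a1, which takes up organic anions and bile acids, read 129.6, 95.03 and 217 FPKM in the ND libraries and 42.9, 6.93 and 2.16 in the HP libraries (log2 difference -3.76, SE 0.71, limma adjusted p = 0.00377). HP 1 read higher than HP 2 and HP 3 for all 3 genes. Lepr, the leptin receptor, read 13.99, 7.81 and 12.7 FPKM in the ND libraries and 0.862, 0.886 and 0.689 in the HP libraries (log2 difference -2.75, SE 0.22, limma adjusted p = 6.5e-05). It was also low in HR, at 1.301, 0.464 and 0.488 FPKM, and HP and HR differed by 0.08 (95% interval -0.41 to 0.57). Among the 15 largest falls were also 4 genes of major urinary proteins, Mup7 (-3.70), Mup1 (-2.45), Mup14 (-2.21) and Mup16 (-2.18), and 3 of P450 enzymes that hydroxylate fatty acids, Cyp4a12b (-3.04), Cyp4a31 (-2.28) and Cyp4a14 (-1.95). C8b (-2.39), Egfr (-2.21), Ehhadh (-2.06) and Socs2 (-2.03) completed them. Genes of the Mup, Gst, Cyp2a, Cyp2b, Cyp4a, Ugt2b, Serpina1, Saa and Orm families have near-identical copies among which reads can be split, so the value of a single member is uncertain. Mup14 lost its call without ND 1, ND 3 or HP 2.

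**Figure D3:**
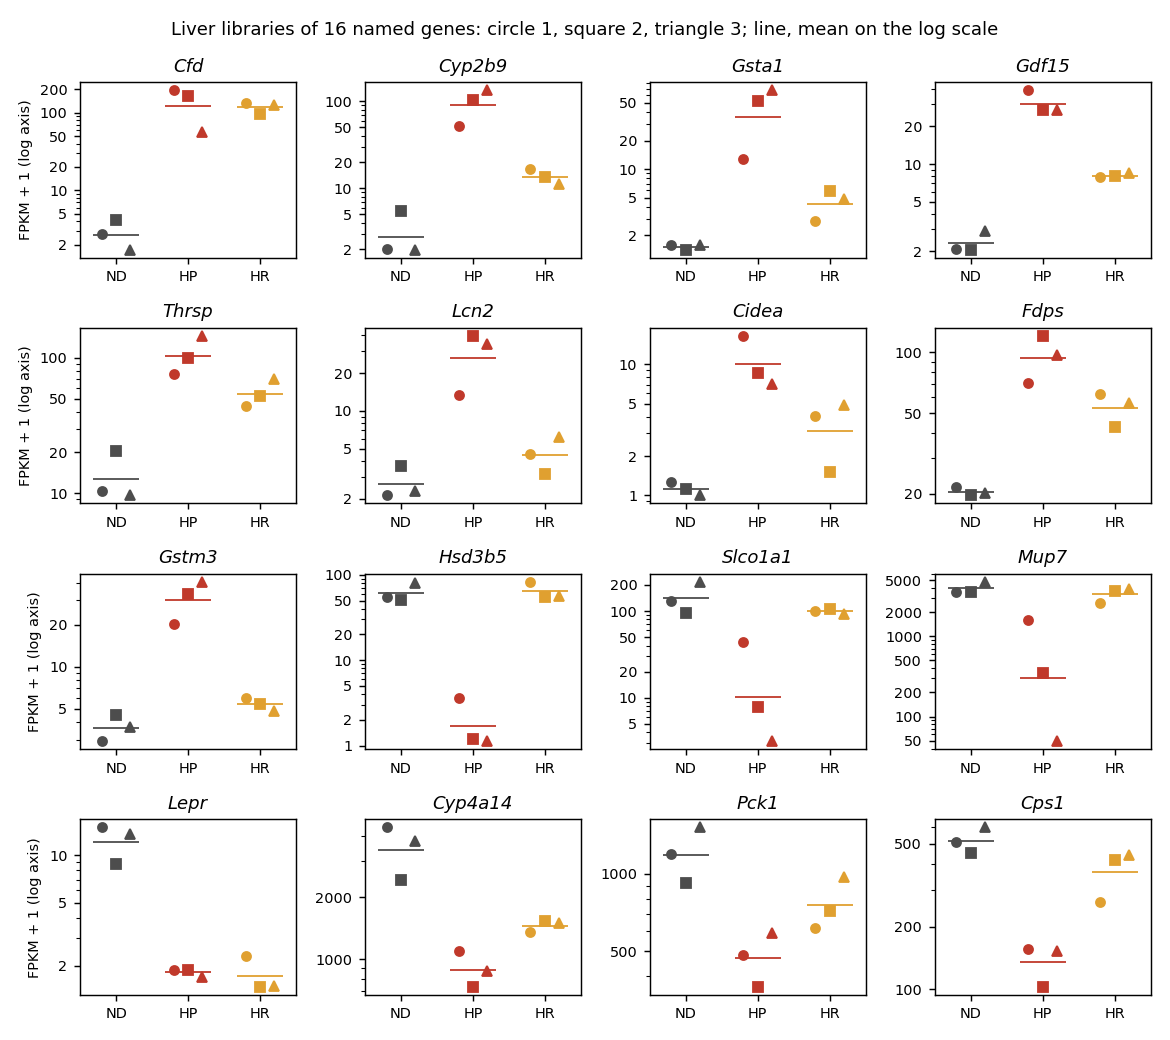
FPKM + 1 on a log axis for 16 genes in the ND, HP and HR liver libraries (circle, square and triangle are libraries 1, 2 and 3, the line is the mean on the log scale). ND and HP do not overlap in any of them. HR lies with HP for Cfd and Lepr and with ND for Hsd3b5 and Mup7.

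Gene lists show which functions these changes touched. A list's share of higher or lower members is read against the 17.6% and 14.1% of all genes tested, and its median against the -0.02 of all genes. Counts of HP against HR are read against the 7.2% of all genes higher and 3.94% lower in that comparison. Of the genes tested, 26 reached 1 FPKM in the 3 HP libraries and in no other liver library, and 18 in the 3 ND libraries alone, so these had to differ to be tested. The lists hold 5 of them, 1 each in matrix, glycogen and iron and 2 in hepatokines, and their calls are a description. Scand1, named above, is in no list and is among the 26.

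**Figure D4:**
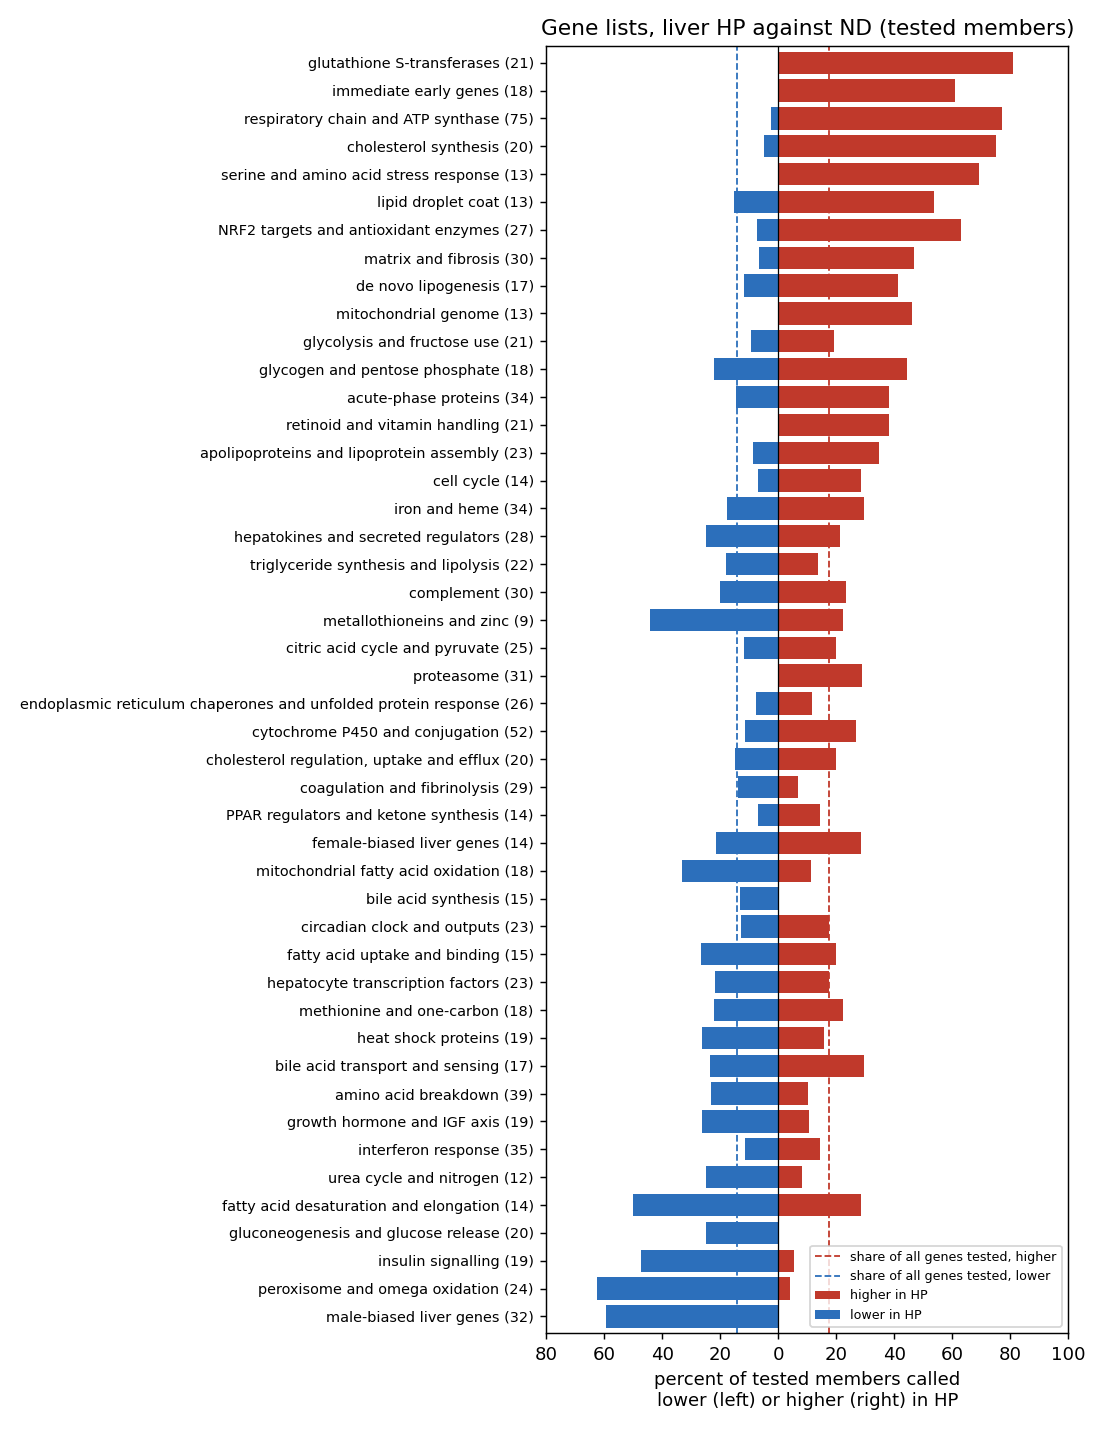
Share of tested members called higher (red, right) or lower (blue, left) in HP for 46 gene lists, ordered by their median, with the number tested in parentheses. Dashed lines give the shares of all genes tested, 17.6% and 14.1%. Glutathione S-transferases stand at the top and male-biased genes at the bottom.

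Male-biased liver genes were lower in HP for 19 of 32 tested members and higher for none, with a median of -1.20. After the length and GC correction 21 were lower, and 25 after rescaling to the same sum. The fall was uneven among the HP libraries. The median member stood at -0.55, -1.29 and -1.73 from the ND mean in HP 1, 2 and 3, and at -0.01, 0.11 and 0.01 in HR 1, 2 and 3. HP 1 was the HP library nearest to ND for 17 of the 19 called members, and for 49.7% of all called genes. Mup7 shows the spread, with 3588, 3544 and 4775 FPKM in the ND libraries and 1613, 347 and 48.4 in the HP libraries. C8b, a chain of the complement membrane attack complex, read 122, 87.6 and 138 FPKM in the ND libraries and 31.7, 19.9 and 14.4 in the HP libraries (log2 difference -2.39, SE 0.24, limma adjusted p = 0.000195). Egfr, the epidermal growth factor receptor, read 59.8, 44.6 and 74.6 FPKM in the ND libraries and 18.1, 10.9 and 8.42 in the HP libraries (log2 difference -2.21, SE 0.25, limma adjusted p = 0.000348). In HR it read 59.7, 58.1 and 46.3 FPKM, and the interval of the difference between HP and HR was -2.65 to -1.56. Against HR, 14 of the 32 members were lower in HP and none higher, where 3.94% of all genes were lower and 7.2% higher.

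**Figure D5:**
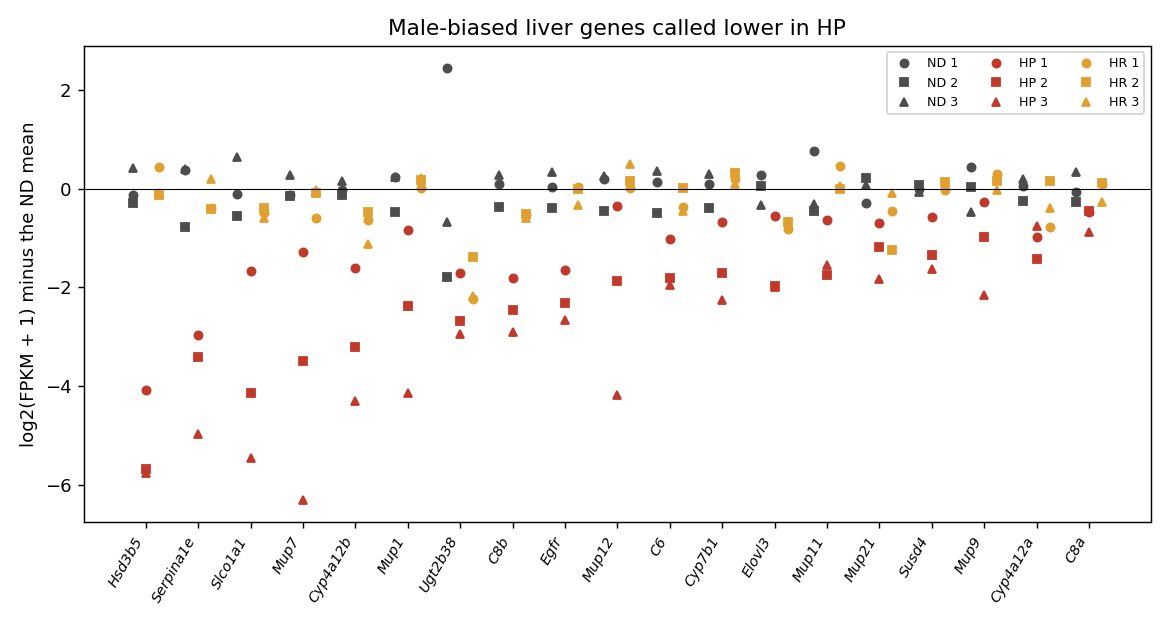
Log2(FPKM + 1) minus the ND mean for the 19 male-biased genes called lower in HP, with each library as a point (grey ND, red HP, yellow HR). HP 2 and HP 3 lie below HP 1 for most genes, and HR libraries lie near the ND mean for most.

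The female-biased list did not mirror this. Of 14 members 4 rose and 3 fell, with a median log2 difference of -0.10, and 4 and 2 did so after the length and GC correction. Slc22a27, an anion transporter of female kidney and liver, read 0.236, 0.815 and 0.108 FPKM in the ND libraries and 5.45, 8.51 and 12.6 in the HP libraries (log2 difference 2.80, SE 0.25, limma adjusted p = 9.63e-05), beside Cyp2b9 and Cyp2a4. Nipal1 and Cyp4a14 fell by 1.18 and 1.95. Of 19 genes of the growth hormone and insulin-like growth factor axis 2 rose and 5 fell, or 1 and 6 after the length and GC correction, and none rose without HP 3. Socs2, a feedback inhibitor that growth hormone induces through STAT5, read 41.6, 17.00 and 10.5 FPKM in the ND libraries and 2.97, 5.11 and 4.38 in the HP libraries (log2 difference -2.03, SE 0.41, limma adjusted p = 0.00533). It was also low in HR, at 7.55, 3.58 and 8.05 FPKM, and HP minus HR was -0.48 (limma adjusted p = 0.447). Of the 19 genes, 4 were lower in HP than in HR and 1 higher. Lifr, the receptor of leukemia inhibitory factor, read 45.2, 34.8 and 48.9 FPKM in the ND libraries and 23.2, 13.9 and 11.9 in the HP libraries (log2 difference -1.38, SE 0.23, limma adjusted p = 0.00238). Igf1, the growth factor itself, read 245, 227 and 203 FPKM in the ND libraries and 269, 369 and 249 in the HP libraries and did not pass (adjusted p = 0.106). It passed as higher in HP after the length and GC correction (limma adjusted p = 0.0373).

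Glutathione S-transferases, which join glutathione to reactive compounds, rose for 17 of 21 tested members and fell for none, with a median of 1.22. With the length and GC correction 14 were higher and 2 lower, and with the same sum 13 and 1. Gstm1, among the most abundant, read 234, 302 and 237 FPKM in the ND libraries and 827, 1197 and 1222 in the HP libraries (log2 difference 2.05, SE 0.17, limma adjusted p = 6.5e-05). Every HP library lay above every ND library. Gstm3 read 1.92, 3.51 and 2.67 FPKM in the ND libraries and 19.3, 32.5 and 39.8 in the HP libraries (log2 difference 3.05, SE 0.24, limma adjusted p = 6.5e-05). Gsta4, which clears aldehydes of oxidized lipid, read 16.6, 20.2 and 17.1 FPKM in the ND libraries and 42.3, 49.1 and 47.2 in the HP libraries (log2 difference 1.32, SE 0.11, limma adjusted p = 7.91e-05), and Gsta2 and Gstm2 rose by 1.96 and 1.82. HR lay between ND and HP for Gstm1, at 406, 407 and 396 FPKM, and HP exceeded HR by 1.40 (adjusted p = 0.00239). In all, 6 members were higher in HP than in HR.

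Targets of NRF2, the factor that answers oxidative stress, and other antioxidant enzymes rose for 17 of 27 and fell for 2, with a median of 0.57. After the length and GC correction the counts were 13 and 2, after rescaling to the same sum 10 and 4, and without HP 2 or ND 3 they were 11 and 1. Nqo1, a quinone reductase, read 2.89, 3.13 and 1.84 FPKM in the ND libraries and 6.99, 9.99 and 10.9 in the HP libraries (log2 difference 1.51, SE 0.18, limma adjusted p = 0.000454). Ugdh, which makes the UDP-glucuronate used to conjugate drugs and bilirubin, read 47.1, 42.2 and 39.5 FPKM in the ND libraries and 97.1, 95.2 and 123 in the HP libraries (log2 difference 1.27, SE 0.13, limma adjusted p = 0.000221). Gpx4, which reduces lipid peroxides in membranes, read 135, 197 and 118 FPKM in the ND libraries and 391, 538 and 439 in the HP libraries (log2 difference 1.62, SE 0.20, limma adjusted p = 0.000501). Txn1 and Prdx3, a thioredoxin and a mitochondrial peroxidase, rose by 1.24 and 0.60. The groups did not overlap in any of these 5 genes.

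The core of the antioxidant response element, TGACNNNGC on either strand, is in the 250 bases before the start of 11.5% of all mouse genes with a RefSeq promoter, of 14% of the genes tested here and of 14% of those higher in HP. It was found for 7 of the 22 NRF2 and antioxidant genes with a promoter and for 4 of the 19 glutathione S-transferases. Among the members higher in HP it was in 4 of 15 and 3 of 15, so it was not more common in them. Of the other members with the core, G6pdx fell and the rest were not called. The promoter of Ugdh is shown because this gene had the smallest adjusted p of its list and holds the core at more than 1 place. It lies at chr5:65435843-65436092 on the minus strand of GRCm38.p6, from RefSeq, and ends at the base before the start. Capitals mark the core, with matches that begin 132 bases before the start on the gene's strand and 94 bases before it on the other strand, given as offsets of -132 and -94.
Ugdh: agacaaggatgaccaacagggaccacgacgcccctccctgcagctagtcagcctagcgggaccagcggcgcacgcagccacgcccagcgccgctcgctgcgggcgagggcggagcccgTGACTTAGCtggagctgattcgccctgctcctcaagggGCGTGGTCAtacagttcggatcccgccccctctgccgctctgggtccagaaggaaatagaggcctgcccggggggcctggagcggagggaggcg
A match of these letters is a description of the sequence and does not show binding.

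The P450 and conjugation list had 14 higher and 6 lower of 52 members, or 15 and 5 after the length and GC correction. Among its P450 enzymes, Cyp2b9 and Cyp2a22 had the smallest adjusted p. Cyp2a22 read 2.36, 7.63 and 3.66 FPKM in the ND libraries and 28.1, 58.4 and 68.1 in the HP libraries (log2 difference 3.26, SE 0.35, limma adjusted p = 0.000262). Cyp2c38 rose by 1.46 and Cyp2a12 by 0.71. Among conjugating enzymes and partners, Sult1c2, a sulfotransferase, rose by 1.43 and Cyb5a, which feeds electrons to P450 enzymes, by 1.06. Ugt2b1, which joins glucuronate to steroids, read 215, 193 and 245 FPKM in the ND libraries and 117, 63.3 and 80.1 in the HP libraries (log2 difference -1.36, SE 0.20, limma adjusted p = 0.00115).

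Most enzymes of cholesterol synthesis rose. Of 20 tested enzymes 15 were higher in HP and 1 lower, with a median of 0.75. After the length and GC correction 13 were higher and none lower, and after rescaling to the same sum 11 and 1. Hmgcs1, which makes HMG-CoA at the head of the pathway, read 42.6, 27.01 and 36.4 FPKM in the ND libraries and 89.1, 116 and 129 in the HP libraries (log2 difference 1.64, SE 0.18, limma adjusted p = 0.000258). Fdps, the farnesyl diphosphate synthase, read 20.7, 18.6 and 19.1 FPKM in the ND libraries and 69.2, 119 and 96.3 in the HP libraries (log2 difference 2.20, SE 0.19, limma adjusted p = 8.94e-05). Msmo1 and Nsdhl, which remove methyl groups from sterols, rose by 2.04 and 1.83, and Acat2, which makes acetoacetyl-CoA, by 1.16. The member that fell was Hsd17b7, a late sterol reductase, by 0.59, named here because it went against its list. Its call was lost without any 1 of ND 1, ND 3, HR 3 and the HP libraries (adjusted p of 0.0531 to 0.158). In HR 12 of the 20 enzymes were higher than in ND and none lower, where 242 of all 10633 genes were higher and 103 lower. Msmo1 read 60.5, 63.8 and 82.8 FPKM there, and HP and HR differed by -0.13 (95% interval -0.51 to 0.24). Against HR, 3 members were higher in HP and 1 was lower. Fdps was among the former, with a difference of 0.82 (adjusted p = 0.0241).

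A sterol regulatory element, TCACNCCAC on either strand, is in the 250 bases before the start of 1.23% of all genes with a RefSeq promoter. It is in 1.37% of the genes tested, 1.29% of those higher in HP and 1.62% of those lower. Among 15 cholesterol synthesis genes with a promoter it was found in 1, Hmgcs1, whose promoter is shown for that reason. It lies at chr13:119690101-119690350 on the plus strand of GRCm38.p6, from RefSeq, with the element in capitals at an offset of -137 from the start.
Hmgcs1: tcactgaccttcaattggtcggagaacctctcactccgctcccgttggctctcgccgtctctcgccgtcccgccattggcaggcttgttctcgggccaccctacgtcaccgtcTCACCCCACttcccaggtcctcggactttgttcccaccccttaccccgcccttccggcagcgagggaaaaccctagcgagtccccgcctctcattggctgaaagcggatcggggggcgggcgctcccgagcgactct

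Regulators of sterol synthesis and uptake were called in both directions near the shares of all genes, with 4 of 20 higher and 3 lower, or 4 and 4 after the length and GC correction. Insig1, which sterol regulatory element binding proteins induce and which holds them back, read 17.1, 26.8 and 31.6 FPKM in the ND libraries and 51.2, 59.01 and 53.3 in the HP libraries (log2 difference 1.12, SE 0.21, limma adjusted p = 0.00362). Insig2, its relative, read 419.9, 207 and 239 FPKM in the ND libraries and 139, 110.1 and 189 in the HP libraries (log2 difference -0.94, SE 0.28, limma adjusted p = 0.0259). Scap, the escort of these proteins, fell by 0.70, and Srebf1, which encodes the form that drives lipogenesis, rose by 0.88. The call of Insig2 was lost without ND 1, HP 1 or HP 2 (adjusted p of 0.0554 to 0.108). Abca1, which exports cholesterol to HDL, read 26.9, 20.8 and 21.6 FPKM in the ND libraries and 12.6, 8.98 and 15.9 in the HP libraries (log2 difference -0.86, SE 0.19, limma adjusted p = 0.00748).

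Bile acid synthesis showed less. None of 15 members rose and 2 fell, a share of lower genes close to that of all genes, also after the length and GC correction. Cyp7a1, the rate-limiting enzyme, read 95.2, 135 and 117 FPKM in the ND libraries and 95.2, 58.8 and 97.4 in the HP libraries and did not pass (adjusted p = 0.222). Cyp7b1, of the alternative pathway and also male-biased, read 111, 78.3 and 127 FPKM in the ND libraries and 64.5, 30.9 and 20.9 in the HP libraries (log2 difference -1.55, SE 0.32, limma adjusted p = 0.00603), and Cyp2c70, which makes muricholic acids, fell by 0.61, a call lost without ND 1, ND 3 or HP 2. Among transporters and sensors 5 of 17 rose and 4 fell, or 3 and 4 after the length and GC correction, and without HP 2, ND 1 or ND 3 they were 2 and 3, 2 and 3, and 3 and 4. Abcc3, an exporter to the blood, rose by 1.14, while Abcc2, an exporter to the bile canaliculus, fell by 0.99, a call lost without ND 1 or HP 2. Klb, the co-receptor for FGF15 and FGF21, read 9.801, 7.45 and 10.99 FPKM in the ND libraries and 4.16, 3.15 and 4.05 in the HP libraries (log2 difference -1.11, SE 0.18, limma adjusted p = 0.00201), and Nr5a2, a nuclear receptor that drives bile acid synthesis, fell by 0.99.

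De novo lipogenesis, the making of fatty acids from acetyl-CoA, rose for 7 of 17 members and fell for 2, with a median of 0.48. The counts were 6 and 0 after the length and GC correction and 4 and 2 after rescaling to the same sum. Thrsp, a lipogenic protein that carbohydrate and insulin induce, read 9.32, 19.3 and 8.59 FPKM in the ND libraries and 75.4, 98.3 and 144 in the HP libraries (log2 difference 3.03, SE 0.30, limma adjusted p = 0.000184). Fasn, the fatty acid synthase, read 15.5, 21.2 and 20.3 FPKM in the ND libraries and 49.6, 72.4 and 98.5 in the HP libraries (log2 difference 1.85, SE 0.25, limma adjusted p = 0.000749). Aacs, which turns ketone bodies into acetoacetyl-CoA for lipid synthesis, read 1.74, 2.48 and 2.41 FPKM in the ND libraries and 12.3, 12.99 and 20.7 in the HP libraries (log2 difference 2.32, SE 0.23, limma adjusted p = 0.000164). All HP libraries exceeded all ND libraries in these 3 genes. None of the 17 members differed between HP and HR at the threshold, and Fasn read 63.4, 66.2 and 40.9 FPKM in HR (interval of the difference -0.20 to 0.89).

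Fatty acid desaturation and elongation was called in both directions, with 4 of 14 members higher and 7 lower (4 and 5 after the length and GC correction). Without HP 1, HP 2, ND 1 or ND 3, 4 were lower. Fads2, the delta-6 desaturase, read 378, 340.3 and 516 FPKM in the ND libraries and 180.2, 155 and 259 in the HP libraries (log2 difference -1.06, SE 0.20, limma adjusted p = 0.00383). Elovl2, which elongates polyunsaturated fatty acids, read 397, 279 and 442 FPKM in the ND libraries and 169.6, 142 and 201 in the HP libraries (log2 difference -1.11, SE 0.21, limma adjusted p = 0.00374), and Elovl3 fell by 1.50. Elovl1 and Tecr, which work on saturated very long chains and on every elongation cycle, rose by 0.93 and 0.95. Scd1, the stearoyl-CoA desaturase, read 924, 2015 and 1745 FPKM in the ND libraries and 2099.5, 1238 and 1958 in the HP libraries, groups that overlapped (adjusted p = 0.624).

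Genes of fatty acid oxidation outside the mitochondria fell. Of 24 peroxisomal and omega oxidation genes, among them classic PPAR alpha targets, 15 were lower and 1 higher, with a median of -0.59. After the length and GC correction 14 were lower, and after rescaling to the same sum 15. Cyp4a14, a fatty acid omega-hydroxylase, read 4395, 2425 and 3767 FPKM in the ND libraries and 1097, 730.2 and 874 in the HP libraries (log2 difference -1.95, SE 0.22, limma adjusted p = 0.000359). Cyp4a10 read 2034, 1904 and 2224 FPKM in the ND libraries and 770.4, 740.1 and 662 in the HP libraries (log2 difference -1.50, SE 0.13, limma adjusted p = 7.59e-05). Ehhadh, the peroxisomal bifunctional enzyme, read 1612, 612 and 1197 FPKM in the ND libraries and 282, 219.6 and 263 in the HP libraries (log2 difference -2.06, SE 0.29, limma adjusted p = 0.00107), and Acot1, a thioesterase of acyl-CoA, fell by 1.36. HR lay on the same side: Ehhadh read 309, 351 and 242 FPKM there, and HP and HR differed by -0.23 (95% interval -0.87 to 0.41).

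Mitochondrial oxidation had 6 of 18 enzymes lower and 2 higher, and 9 lower after the length and GC correction. Cpt1a, which admits fatty acids to mitochondria, read 262, 254 and 265 FPKM in the ND libraries and 134, 121 and 148 in the HP libraries (log2 difference -0.96, SE 0.11, limma adjusted p = 0.000454). Hadha and Etfdh, of the beta-oxidation spiral and its electron transfer, fell by 0.95 and 0.97. Eci1, which handles unsaturated chains, rose by 0.63 and did not pass after the length and GC correction (adjusted p = 0.222). None of the 4 tested ketone synthesis enzymes passed. Pparg, the receptor that drives fat storage, read 5.298, 6.96 and 5.79 FPKM in the ND libraries and 13.3, 15.3 and 17.1 in the HP libraries (log2 difference 1.21, SE 0.20, limma adjusted p = 0.00197).

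Genes of lipid droplets, the organelles in which triglyceride is stored, rose for 7 of 13 and fell for 2, with a median of 0.62. The counts were 6 and 1 after the length and GC correction, and 7 and 0 without HP 2, HP 3, ND 1 or ND 3. Plin4, a perilipin, read 4.36, 7.42 and 2.96 FPKM in the ND libraries and 31.5, 33.8 and 59.04 in the HP libraries (log2 difference 2.86, SE 0.31, limma adjusted p = 0.000274). Cidea, which fuses droplets, read 0.2598, 0.113 and 0 FPKM in the ND libraries and 15.4, 7.66 and 6.11 in the HP libraries (log2 difference 3.17, SE 0.40, limma adjusted p = 0.000613), from values at or near 0 in ND. Fitm1, which partitions triglyceride into droplets, rose by 1.78, and Plin3 and Bscl2 by 0.67 and 0.62. Fabp4, a fatty acid carrier of fat cells and macrophages, read 9.73, 9.89 and 6.53 FPKM in the ND libraries and 35.7, 30.2 and 36.7 in the HP libraries (log2 difference 1.87, SE 0.15, limma adjusted p = 6.5e-05), and HR read 10.8, 11.6 and 11.6 FPKM, close to ND. Cd36, a fatty acid transporter, read 36.4, 52.2 and 37.4 FPKM in the ND libraries and 89.1, 74.1 and 97.5 in the HP libraries (log2 difference 1.04, SE 0.16, limma adjusted p = 0.00139). Of 22 genes of triglyceride synthesis and breakdown 3 rose and 4 fell, or 1 and 6 after the length and GC correction, and 2 fell without HP 2, ND 1 or ND 3. Mogat1, which makes diacylglycerol, rose by 1.85, and Gpat4, which adds the first fatty acid to glycerol phosphate, read 100.3, 83.9 and 79.4 FPKM in the ND libraries and 42.2, 29.7 and 28.1 in the HP libraries (log2 difference -1.39, SE 0.20, limma adjusted p = 0.00122).

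Apolipoproteins and lipoprotein assembly had 8 of 23 members higher and 2 lower at a median of 0.28, which became -0.11 after the length and GC correction (6 higher, 3 lower). Apoa2, an abundant HDL protein, read 15267, 21599 and 15428 FPKM in the ND libraries and 34988, 46209.6 and 37667 in the HP libraries (log2 difference 1.19, SE 0.23, limma adjusted p = 0.00386). Apoc2 and Apoc3, an activator and an inhibitor of lipoprotein lipase, rose by 1.17 and 1.10, and Apoc4 by 1.08. Apom, which carries sphingosine phosphate on HDL, read 90.2, 76.98 and 70.6 FPKM in the ND libraries and 28.2, 21.5 and 21.3 in the HP libraries (log2 difference -1.71, SE 0.17, limma adjusted p = 0.000185), with HR between the groups at 38.8, 41.02 and 57.5 FPKM. Mttp, which loads lipid onto apolipoprotein B, fell by 0.72.

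In glucose metabolism, the gluconeogenic enzymes fell where they moved. Of 20 genes 5 were lower and none higher, also after the length and GC correction. Pck1, which commits oxaloacetate to glucose, read 1190.3, 917 and 1515 FPKM in the ND libraries and 482, 362 and 588 in the HP libraries (log2 difference -1.34, SE 0.24, limma adjusted p = 0.00294). G6pc, which releases glucose, read 169, 124 and 224 FPKM in the ND libraries and 82.5, 53.3 and 89.4 in the HP libraries (log2 difference -1.18, SE 0.23, limma adjusted p = 0.00423). Got1, Fbp1 and Pcx fell by 1.57, 0.78 and 0.52, and the call of Pcx was lost without ND 1, ND 3 or HP 2. Ldha, which interconverts lactate and pyruvate, read 1216, 1102 and 1146 FPKM in the ND libraries and 718, 521 and 538 in the HP libraries (log2 difference -0.98, SE 0.15, limma adjusted p = 0.00134). Without HP 2 the glycolysis list went from 4 higher and 2 lower of 21 to 2 and 1, and without ND 1 to 2 and 2. With the length and GC correction it had 3 and 3.

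Glycogen and pentose phosphate genes were called in both directions, 8 higher and 4 lower of 18, the same counts as after the length and GC correction. Without HP 2, HP 3 or ND 3, 7 were higher and 1, 2 and 1 lower. Taldo1 and Tkt, which shuttle sugars in the pentose phosphate path, rose by 1.26 and 1.12, and Taldo1 read 57.2, 53.9 and 53.3 FPKM in the ND libraries and 126, 138 and 135 in the HP libraries. Pgls and Pgd, which act in its oxidative branch, rose by 1.12 and 0.78. G6pdx, the entry enzyme of that branch, fell by 0.89, from 3.503, 2.88 and 4.15 FPKM in ND to 1.02, 1.32 and 2.02 in HP (adjusted p = 0.00422), named because it went against the others. Gbe1, the glycogen branching enzyme, rose by 1.09.

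Insulin signalling genes were lower for 9 of 19 and higher for 1, with a median of -0.32. After the length and GC correction 5 were lower, and without ND 1 also 5. Irs2 and Irs1, the docking proteins of the insulin receptor, read 5.04, 2.07 and 6.44 FPKM in the ND libraries and 1.32, 0.762 and 1.44 in the HP libraries for Irs2 (log2 difference -1.26, SE 0.27, limma adjusted p = 0.00706) and fell by 0.78 for Irs1. Igfbp1, which insulin represses, read 72.4, 43.2 and 106 FPKM in the ND libraries and 24.97, 10.1 and 26.8 in the HP libraries (log2 difference -1.81, SE 0.36, limma adjusted p = 0.00482), and HR read 19.96, 16.5 and 21.96 FPKM. Akt1 fell by 0.52, and Trib3, an inhibitor of AKT, rose by 0.53 and did not pass after the length and GC correction (adjusted p = 0.122).

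Of 12 genes of the urea cycle and nitrogen handling 3 were lower and 1 higher, or 5 and 1 after the length and GC correction. Cps1, which makes carbamoyl phosphate from ammonia at the start of the urea cycle, read 507, 453 and 598 FPKM in the ND libraries and 156, 102 and 152 in the HP libraries (log2 difference -1.94, SE 0.22, limma adjusted p = 0.000363). The groups did not overlap, HR lay between them at 262, 416 and 441 FPKM, and HP lay below HR with a difference of -1.44 (adjusted p = 0.0056). Slc25a15 and Slc25a13, mitochondrial carriers of the cycle, fell by 0.96 and 0.79, while Otc, the enzyme that follows Cps1, rose by 0.57, a call lost after rescaling to the same sum. Amino acid breakdown had 9 of 39 lower and 4 higher, or 10 and 5 after the length and GC correction. Cbs, which turns homocysteine into cystathionine, read 264, 177 and 248 FPKM in the ND libraries and 116, 89.9 and 99.3 in the HP libraries (log2 difference -1.15, SE 0.16, limma adjusted p = 0.00101). Hgd, of tyrosine breakdown, and Aass, of lysine breakdown, fell by 0.90 and 1.08. In this list 11 members were lower in HP than in HR and none higher. Mat1a, which makes S-adenosylmethionine in liver, read 2650.0, 2590.1 and 2369 FPKM in the ND libraries and 1263, 1176 and 1212 in the HP libraries (log2 difference -1.06, SE 0.14, limma adjusted p = 0.000633), in a methionine and one-carbon list with 4 members called in each direction of 18, or 3 and 5 after the length and GC correction.

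Among secreted proteins, 13 of 34 acute-phase genes rose and 5 fell, or 11 and 5 after the length and GC correction. Without HP 2, ND 1 or ND 3, 11, 11 and 12 rose and 3 fell in each. The list pools 2 roles. Of 28 positive members, which rise in an acute-phase response, 11 rose and 5 fell. Of 6 negative members, which fall in such a response, 2 rose, Ttr among them, and 0 fell. Lcn2, lipocalin 2, read 1.12, 2.64 and 1.31 FPKM in the ND libraries and 12.4, 38.5 and 33.2 in the HP libraries (log2 difference 3.33, SE 0.38, limma adjusted p = 0.000363). Saa2, a serum amyloid A, read 8.43, 15.4 and 6.18 FPKM in the ND libraries and 58.4, 91.5 and 80.7 in the HP libraries (log2 difference 2.89, SE 0.35, limma adjusted p = 0.000454). HP 1 was the lowest HP library for both, and HR stayed lower, at 3.51, 2.15 and 5.23 and 15.7, 9.45 and 25.5 FPKM. Orm3, an orosomucoid, rose by 2.22, and Itih3, an inter-alpha-trypsin inhibitor chain, fell by 0.93. Neutrophils also make Lcn2, and their markers summed to 2.13 to 2.29 FPKM in ND and 5.87 to 6.998 in HP. Of 9 markers 2 were tested, S100a8 and S100a9, and both were higher in HP. S100a8 read 0.984, 0.827 and 0.800 FPKM in ND and 2.97, 2.72 and 2.75 in HP. S100a9 read 0.244, 0.613 and 0.403 FPKM in ND and 1.27, 2.39 and 2.33 in HP. Ly6g and Mpo were at 0 in every ND and HP library. The part of neutrophils in the rise of Lcn2 was not tested.

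Complement was split, with 7 higher and 6 lower of 30 and a median of 0.12, -0.10 after the length and GC correction (5 higher, 6 lower). C3, the central component, read 1792, 1357 and 1678 FPKM in the ND libraries and 844, 761 and 830.0 in the HP libraries (log2 difference -0.98, SE 0.14, limma adjusted p = 0.00117). C6, of the terminal complex, fell by 1.59, and Masp1, a protease of the lectin path, by 1.53. C4a and C1s1 rose by 1.10 and 1.03. Among hepatokines 6 of 28 rose and 7 fell, or 6 and 8 after the length and GC correction, with 10 higher without ND 2. Tsku, tsukushi, read 5.71, 14.3 and 12.99 FPKM in the ND libraries and 71.7, 56.5 and 79.1 in the HP libraries (log2 difference 2.62, SE 0.28, limma adjusted p = 0.000232), and Lect2, a hepatocyte chemotactic factor, read 54.9, 81.7 and 48.3 FPKM in the ND libraries and 193, 239.8 and 190.0 in the HP libraries (log2 difference 1.76, SE 0.19, limma adjusted p = 0.00024). Fgf21, a fasting and stress hormone, rose by 0.83 (adjusted p = 0.0451) and did not pass after the length and GC correction (adjusted p = 0.445) or without any 1 of the ND libraries, HP 2 or HP 3. Fgf1 fell by 0.87.

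Iron and heme genes had 10 higher and 6 lower of 34, or 8 and 4 after the length and GC correction. Both ferritin chains rose, Ftl1 with 1182, 1601 and 1063 FPKM in the ND libraries and 2320.4, 3277 and 2486 in the HP libraries (log2 difference 1.08, SE 0.19, limma adjusted p = 0.00294) and Fth1 with a log2 difference of 0.93. Blvrb, a biliverdin reductase, rose by 1.04, and Bmp2, a signal for hepcidin, fell by 0.79. Hamp, which encodes hepcidin, spread widely, at 474, 758 and 318 FPKM in the ND libraries and 483, 152 and 159.9 in the HP libraries, and did not pass (adjusted p = 0.501). Red cell markers summed to 125 to 156 FPKM in ND and 196 to 333 in HP, and 3 of 5 tested rose. Their part in the ferritin rise was not tested.

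Subunits of the respiratory chain and ATP synthase rose for 58 of 75 and fell for 2, with a median of 0.76. These are short transcripts, and after the length and GC correction 33 rose and 2 fell (median log2 difference 0.35). With the same sum in every library the counts were 42 and 4. All 9 tested subunits of complex IV rose, and 6 did after the length and GC correction. By complex, 30 of 37 subunits of complex I, 2 of 4 of complex II, 6 of 10 of complex III and 11 of 15 of ATP synthase were higher. Uqcrq, of complex III, read 218, 322 and 220.4 FPKM in the ND libraries and 613, 893 and 668 in the HP libraries (log2 difference 1.52, SE 0.20, limma adjusted p = 0.000653). Cox7c, of complex IV, read 315, 404 and 317 FPKM in the ND libraries and 638, 895 and 669 in the HP libraries (log2 difference 1.08, SE 0.16, limma adjusted p = 0.00143), and Ndufb4, of complex I, rose by 1.35. Sdhd, of complex II, fell by 0.37, a call lost when any 1 library other than HP 1 was left out. HR values of Uqcrq were 326, 242 and 304 FPKM, and 39 subunits were higher in HP than in HR and none lower. HP 2 held the most muscle transcripts, and without it 43 subunits were higher than in ND and 0 lower. HP 3, with 24.3 FPKM of muscle transcripts, stays in that comparison, and the part of muscle in the rise was not tested.

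Transcripts of the mitochondrial genome rose for 6 of 13, and for 1 after the length and GC correction. Without HP 2, 3 rose, and without ND 1 or ND 3, 2. The gene that passed with the correction was mt-Atp6, which read 15035, 20823 and 14502 FPKM in the ND libraries and 27483, 37489 and 31489 in the HP libraries (log2 difference 0.95, SE 0.21, limma adjusted p = 0.00873). With the correction its limma adjusted p was 0.0477, close to the threshold. Its call was lost without a filter on low values (limma adjusted p = 0.127). Proteasome subunits rose for 9 of 31 and fell for none, a direction that depended on the scale, with 6 higher and 4 lower after the length and GC correction and 4 and 6 with the same sum. Without HP 2, ND 1 or ND 3, 5 rose. Psmb5, a catalytic subunit, rose by 0.92.

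Of the stress programmes, a list of serine, amino acid and integrated stress response genes rose for 9 of 13 and fell for none (6 and 1 after the length and GC correction, 5 and 1 with the same sum). Besides Gdf15, Cebpb, a transcription factor of the acute-phase and stress responses, read 7.66, 8.15 and 7.795 FPKM in the ND libraries and 24.4, 25.5 and 36.6 in the HP libraries (log2 difference 1.73, SE 0.15, limma adjusted p = 7.91e-05). Ddit3, which encodes CHOP, rose by 0.74, and Nupr1 by 1.15. Chaperones of the endoplasmic reticulum had 3 of 26 higher and 2 lower, or 2 and 0 after the length and GC correction. Without HP 3 the counts were 6 and 1, and without HP 2 they were 1 and 0. Hspa5, which encodes BiP, read 239, 157 and 207 FPKM in the ND libraries and 252, 195 and 181 in the HP libraries and did not pass (adjusted p = 0.827). In HR it read 263, 406 and 304 FPKM, and 5 members of the list were lower in HP than in HR and none higher. Manf, a secreted protein of that stress, rose by 1.03.

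Heat shock proteins were called in both directions, 3 higher and 5 lower of 19, or 2 and 5 after the length and GC correction. Hspb1, a small heat shock protein, read 4.72, 5.16 and 6.81 FPKM in the ND libraries and 27.4, 31.99 and 25.1 in the HP libraries (log2 difference 2.16, SE 0.20, limma adjusted p = 0.000128), and Hspa1b, an inducible HSP70, read 15.7, 21.03 and 29.3 FPKM in the ND libraries and 10.1, 6.16 and 5.78 in the HP libraries (log2 difference -1.46, SE 0.26, limma adjusted p = 0.00313). Without HP 2 the list had 2 higher and 1 lower, without HP 3 it had 3 in each direction, and without ND 1 or ND 3 it had 2 in each. Immediate early genes, which rise within minutes of a stimulus, rose for 11 of 18 and fell for none, and 6 rose both after the length and GC correction and with the same sum. Without HP 1, 7 rose, without ND 1, 5, and without ND 2, 6. Jun read 4.48, 4.23 and 2.91 FPKM in the ND libraries and 23.5, 8.17 and 16.95 in the HP libraries (log2 difference 1.72, SE 0.34, limma adjusted p = 0.0045), and Jund, a relative, read 6.12, 5.53 and 4.01 FPKM in the ND libraries and 14.02, 12.8 and 14.4 in the HP libraries (log2 difference 1.26, SE 0.18, limma adjusted p = 0.00121). Btg2 and Gadd45a rose by 1.41 and 1.41. The median member stood at 1.49 above the ND mean in HP 1, 0.622 in HP 2 and 0.895 in HP 3, so here HP 1 was the farthest from ND.

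Clock genes follow the time of day, and the hour of tissue collection is not given in the sources used here. Of 23 members 4 rose and 3 fell, near the shares of all genes, or 3 and 2 after the length and GC correction, and without HP 2 the counts were 2 and 2. Ciart, a repressor of CLOCK and BMAL1, read 0.445, 2.58 and 1.88 FPKM in the ND libraries and 4.93, 8.702 and 6.74 in the HP libraries (log2 difference 1.63, SE 0.30, limma adjusted p = 0.00352), and in HR it read 10.7, 11.4 and 15.4 FPKM. Bhlhe40, another repressor, rose by 1.32, and Clock fell by 0.95. Dbp, a clock output factor, read 11.3, 29.7 and 31.3 FPKM in the ND libraries and 50.4, 82.1 and 46.3 in the HP libraries (log2 difference 1.35, SE 0.34, limma adjusted p = 0.0133), and Arntl, which encodes BMAL1, read 4.12, 2.02 and 1.51 FPKM in the ND libraries and 1.396, 0.539 and 1.61 in the HP libraries and did not pass (adjusted p = 0.0728). Dbp did not pass after the length and GC correction (adjusted p = 0.0574) or without HP 2, and Arntl passed without ND 3 (adjusted p = 0.0451). The E-box CACGTG, which reads the same on both strands, is in the 250 bases before the start of 6.86% of all genes with a RefSeq promoter, of 10.2% of the genes tested and of 6 of the 19 clock genes with a promoter. Ciart is shown because it had the smallest adjusted p of the list and holds 3 copies, in capitals, at offsets of -116, -58 and -44 from the start. Its promoter is chr3:95882229-95882478 on the minus strand of GRCm38.p6.
Ciart: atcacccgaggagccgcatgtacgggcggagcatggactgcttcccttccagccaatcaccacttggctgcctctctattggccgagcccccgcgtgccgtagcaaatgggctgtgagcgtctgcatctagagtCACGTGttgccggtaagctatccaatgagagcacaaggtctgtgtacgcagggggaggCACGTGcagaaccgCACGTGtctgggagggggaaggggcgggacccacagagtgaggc

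Of 30 matrix and fibrosis genes, 14 rose and 2 fell, with a median of 0.54, or 13 and 2 after the length and GC correction. Col3a1, a fibrillar collagen, read 2.41, 3.39 and 3.59 FPKM in the ND libraries and 7.15, 14.3 and 19.6 in the HP libraries (log2 difference 1.74, SE 0.28, limma adjusted p = 0.00197), and HR read 2.36, 1.87 and 2.89 FPKM. Anxa2, annexin A2, read 7.67, 10.1 and 6.78 FPKM in the ND libraries and 29.6, 36.1 and 58.7 in the HP libraries (log2 difference 2.17, SE 0.23, limma adjusted p = 0.00024). S100a11, a calcium-binding protein, read 7.38, 5.32 and 5.75 FPKM in the ND libraries and 20.8, 50.4 and 55.1 in the HP libraries (log2 difference 2.48, SE 0.29, limma adjusted p = 0.000415), and Lgals1, galectin 1, read 5.59, 20.6 and 7.31 FPKM in the ND libraries and 84.7, 143 and 133 in the HP libraries. HR lay close to ND for Anxa2, at 9.25, 7.901 and 10.9 FPKM, and for S100a11, at 7.73, 6.501 and 8.2 FPKM. Fn1, fibronectin, which hepatocytes also secrete, fell, with 158, 124 and 149 FPKM in the ND libraries and 82.4, 69.2 and 82.4 in the HP libraries (log2 difference -0.87, SE 0.13, limma adjusted p = 0.0012). Against HR, 15 members were higher in HP and 1 lower. The median member stood at 0.356, 0.749 and 0.933 from the ND mean in HP 1, 2 and 3, and at -0.289, -0.354 and -0.059 in HR.

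Markers of other liver cells are given beside the matrix genes, and some genes, Col3a1 and Mmp12 among them, are in both kinds of list. Stellate cell and fibroblast markers summed to 100.2 to 134 FPKM in ND and 126 to 189 in HP, and 2 of 8 tested rose, Col1a1 and Col3a1, with Lrat at 0 in every ND and HP library. Both are collagens, and the other tested members were not called. The sum of HP 1 lay within the ND range. Markers of recruited and lipid-associated macrophages summed to 47.0 to 62.8 FPKM in ND and 76.4 to 166 in HP, and Spp1 and Cd63 rose by 1.09 and 1.59. Of the 10 markers 5 were tested, and Mmp12 and Ccl2 entered the test only through the HP libraries, so their values are a description, with 1.27, 1.23 and 3.298 FPKM in HP for Mmp12 and 2.48, 3.42 and 2.09 for Ccl2. Cholangiocyte markers summed to 91.4 to 104.8 FPKM in ND and 150.2 to 244 in HP, with Spp1 in both lists, and 3 of 4 tested rose. Spp1 alone read 31.1, 41.8 and 30.1 FPKM in ND and 48.9, 73.1 and 109 in HP. Krt19, Krt7, Epcam, Cftr, Cldn7 and Prom1 were too low to be tested. They read at most 1.28 FPKM in ND and HP, and for each the ND and HP libraries overlapped. Resident macrophage markers did not move at the threshold for any of 12, with sums of 134 to 179.6 FPKM in ND and 149.6 to 211 in HP. Of 9 tested endothelial markers 3 fell. The part of these cells in the matrix result was not tested.

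The difference between HP and HR was tested in the same fit. It held 766 higher and 419 lower genes, 11.1% of those tested, and HR against ND held 242 and 103. Without HR 2, HP 2, HR 3 or HP 3 the count of genes that differed between HP and HR fell from 1185 to 243, 245, 453 and 499. Male-biased genes, matrix genes and respiratory chain subunits, given above, had the highest shares in one direction among lists of 30 or more members. Of 20 cholesterol synthesis genes 4 differed, and of 17 lipogenesis genes none. The comparisons of HP with ND and of HR with ND share the ND libraries, so their values are given side by side only.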

How the data were processed

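Messenger RNA of liver was sequenced, and the authors deposited FPKM values for every library in 1 table of 23474 gene identifiers. The tools named per the submitters' processing notes are STAR 2.4.0, Cufflinks 2.1.1 and CASAVA 1.8.2. Genome build, annotation, strand and tool settings: not given in the sources used here. In addition, the extract protocol in the labels speaks of adipose tissue only. Gene names came from a mouse reference annotation by identifier (22671 matched, 803 did not and kept their identifier).

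FPKM values are not counts, so no total or counting interval could be given. The test was limma 3.58.1 (R 4.3.3) with a variance trend, run on log2(FPKM + 1), in 1 fit of the 9 liver libraries in 3 groups, with Benjamini-Hochberg adjustment over the 10633 genes tested and a threshold of 0.05. On simulated data for HP against ND in 10633 genes, 89% of genes changed by a log2 of 1 and 100% of those changed by 2 were called, with 9 unchanged genes called. The 200 changed genes were drawn from the more abundant genes, with independent noise per gene and no trend with length. These shares therefore do not cover low genes or trends shared within a library. Alternatives were the pseudocount (0.1), no filter, 3 rescalings, a length and GC correction, other fits and each library left out. Named genes are the 15 largest rises and falls whose higher group averaged 5 FPKM or more and whose groups did not overlap, called also after rescaling, up to 5 members per role of each list by adjusted p, members that went against their list, and a few fixed genes. Some genes that meet this rule are not reported here. Genes and lists were chosen with earlier results of these data known. Figures were drawn with matplotlib 3.10.9.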

Additional observations from a re-analysis of the deposited data

How the results depend on the processing

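Depth limits low genes, and its absolute size is unknown. Of 178 genes named in the text 167 were called, and 152 of them kept their direction and call under all 19 alternatives run. None reversed. Most of these genes were picked for a small adjusted p or a large change, so their share does not stand for all called genes. Of all 3372 calls, 1881 held with the length and GC correction and 1731 without HP 2. Without a filter on low values 9 of the 167 lost their call, and without HP 2 also 9. The count of 3372 genes for HP against ND lay between 1740 and 3554 when 1 library was left out (1170 to 1963 higher, 570 to 1591 lower), and that of 3449 after rescaling by the median ratio between 1743 and 3668 (1091 to 1979 higher, 652 to 1689 lower). For HP against HR the count of 1185 lay between 243 and 1445 (177 to 865 higher, 65 to 591 lower). Rescaling to the same sum gave 1039 higher and 3029 lower genes for HP against ND, and 435 and 1303 for HP against HR. Without a filter on low values HP against ND had 2879 genes, and HP against HR fell to 580 (433 higher, 147 lower), with more genes tested. After rescaling and the length and GC correction, 1036 genes were lower. The fit of the HP and ND libraries alone gave 2891 genes and holds no HR value.

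Same-numbered HP and ND libraries deviated from their group means with correlations of 0.163, 0.428 and 0.0953, and each HP library correlated best with its own number, as a hint from the data and not from the design. With the replicate number as a block, 2810 genes were called for HP against ND, 2890 after rescaling, and 872 for HP against HR, of which 269 were lower in place of 419.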

Other observations

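Other liver functions had calls in both directions or calls that were lost without single libraries. Retinoid and vitamin handling had 8 of 21 members higher in HP and none lower, or 6 and 2 after the length and GC correction, and 3 to 5 higher without HP 1, HP 2, ND 1 or ND 3. Ttr, which carries retinol-binding protein and thyroid hormone, read 2291, 2828 and 2453 FPKM in the ND libraries and 4539, 5937 and 5188 in the HP libraries (log2 difference 1.05, SE 0.16, limma adjusted p = 0.00139). The citric acid cycle had 5 of 25 higher and 3 lower, near the 17.6% and 14.1% of all genes, or 5 and 2 after the length and GC correction. Of 29 coagulation genes 2 rose and 4 fell, or 3 and 7 after the length and GC correction. Without ND 2 they were 6 and 5, none fell without HP 2 or ND 3, and 2 fell without HP 3 or ND 1. Vwf, a clotting protein of endothelium, rose by 0.91. Fatty acid uptake had 3 higher and 4 lower of 15, or 3 and 2 after the length and GC correction, with 2 lower without HP 1, HP 2, ND 1 or ND 3. Acsl1, which activates long-chain fatty acids, fell by 1.05.

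Interferon response genes had 5 of 35 higher and 4 lower, or 2 and 5 after the length and GC correction and 1 and 15 after rescaling to the same sum. None was higher without HP 2 or ND 1. Irgm2, an interferon-induced GTPase, read 24.3, 38.9 and 44.5 FPKM in the ND libraries and 15.3, 14.7 and 14.7 in the HP libraries (log2 difference -1.17, SE 0.26, limma adjusted p = 0.00749). Cell cycle genes had 4 of 14 higher and 1 lower, or 5 and 0 after the length and GC correction, but none higher with the same sum, and 1 or 2 higher without HP 2, HP 3, ND 1 or ND 2. Cdkn1a, which halts the cycle, read 4.3, 2.15 and 2.03 FPKM in the ND libraries and 5.47, 4.84 and 12.5 in the HP libraries (log2 difference 1.11, SE 0.35, limma adjusted p = 0.0321), and did not pass after the length and GC correction (adjusted p = 0.101) or without ND 2, ND 3 or HP 3. Hepatocyte transcription factors had 4 of 23 higher and 5 lower, or 2 and 3 after the length and GC correction, with 2 or 3 lower when any library but ND 2 was left out of HP or ND. Metallothioneins and zinc carriers had 2 of 9 higher and 4 lower, or 2 and 1 after the length and GC correction, with 1 lower without HP 2 or ND 1. Mt1 and Mt2, which bind zinc and copper, did not pass (adjusted p = 0.197 and 0.483). Slc39a5, a zinc importer, rose by 1.10.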
